A study of Homo sapiens with 6 samples.

Results

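Promoter-flanking peaks were defined as ATAC-seq peaks whose centre lay more than 1 kb and at most 10 kb from the nearest transcript start of a protein-coding gene. This rule used position only, on hg38 with GENCODE 44, and none of the counts. It took 32009 of 171517 peaks, or 18.7%. The remaining peaks were 45627 within 1 kb of a start and 93881 over 10 kb from one. Each flanking peak is named here after the gene with the nearest start, which is a label for its position and not an assigned target.

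The peaks were measured in naive human embryonic stem (nES) cells of the H9 line, cultured in tt2iLGö medium (tt2iLIFGo in the labels). In 3 libraries the cells were exposed for 24 h to 4 mM dimethyl-α-ketoglutarate (dm-αKG), a cell-permeable form of the TCA cycle metabolite α-ketoglutarate (αKG). The 3 control libraries are labelled DMSO, whereas the methods of the study describe their medium as holding 0 mM dm-αKG. All cells were taken off their feeder layer before seeding. The experiment was performed once with 3 biological replicates of 1 cell line, so p-values measure the spread between these replicates and not between lines or experiments.

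In ATAC-seq a transposase cuts accessible DNA, so the reads at a site rise with its accessibility. Promoters of active genes are kept open by the general transcription machinery and are often rich in GC. Gene regulatory elements (GREs) outside promoters, such as enhancers in first introns and upstream flanks, are opened by sequence-specific transcription factors and differ more between cell states. In pluripotent cells many of these elements carry composite OCT4 and SOX2 sites, whereas AP-1 (JUN and FOS) and NRF2 open elements in response to stress and growth signals. αKG is a cofactor of DNA and histone demethylases and a precursor of glutamate.

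Sequences of called flanking peaks that hold a motif are shown as examples. Each is 200 bases of hg38, forward strand, around the centre of the peak, and capitals mark every match, on either strand, to 1 of 15 motifs. At least 1 of these motifs was in 46.1% of less accessible, 56.8% of more accessible and 47.5% of uncalled flanking peaks. The first 3 sequences are less accessible with dm-αKG and the next 3 more accessible, taken from the most significant peaks that hold a motif. The CHCHD4 and GAS2L1 peaks also met this condition, but lie in untranslated regions and are not shown.
TDP1 flank, chr14:89960923-89961122: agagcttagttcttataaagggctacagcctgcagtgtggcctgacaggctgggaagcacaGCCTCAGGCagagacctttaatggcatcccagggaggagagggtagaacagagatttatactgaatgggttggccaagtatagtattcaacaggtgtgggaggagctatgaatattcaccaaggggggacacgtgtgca
SMAD7 flank, chr18:48959893-48960092: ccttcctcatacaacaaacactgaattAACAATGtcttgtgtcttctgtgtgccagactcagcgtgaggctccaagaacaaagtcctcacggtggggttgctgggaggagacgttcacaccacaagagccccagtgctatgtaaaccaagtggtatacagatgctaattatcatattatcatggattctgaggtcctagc
USP7 flank, chr16:8983698-8983897: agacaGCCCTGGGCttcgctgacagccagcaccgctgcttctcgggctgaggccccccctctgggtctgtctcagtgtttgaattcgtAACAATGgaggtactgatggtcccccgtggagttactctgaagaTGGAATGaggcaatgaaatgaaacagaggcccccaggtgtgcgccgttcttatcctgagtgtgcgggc
GNA13 flank, chr17:65064787-65064986: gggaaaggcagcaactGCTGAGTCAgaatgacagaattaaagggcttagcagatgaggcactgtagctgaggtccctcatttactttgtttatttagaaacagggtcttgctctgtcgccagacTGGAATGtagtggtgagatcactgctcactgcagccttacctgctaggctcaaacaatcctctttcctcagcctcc
GJB7 flank, chr6:87293613-87293812: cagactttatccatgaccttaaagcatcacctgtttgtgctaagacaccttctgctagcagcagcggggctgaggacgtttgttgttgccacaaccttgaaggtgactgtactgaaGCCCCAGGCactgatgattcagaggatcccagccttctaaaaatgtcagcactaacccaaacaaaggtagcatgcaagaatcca
ATP6V0C flank, chr16:2515275-2515474: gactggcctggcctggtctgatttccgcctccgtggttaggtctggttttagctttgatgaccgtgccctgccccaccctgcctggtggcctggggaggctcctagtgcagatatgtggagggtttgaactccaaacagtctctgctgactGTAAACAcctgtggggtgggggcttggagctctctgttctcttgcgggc

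The TDP1 and GJB7 sequences hold a TFAP2 motif (GCCNNNGGC, in 17.9% of all 171517 peaks in windows of this length). This motif was in 9.32% of less accessible, 16.2% of more accessible and 17.0% of uncalled flanking peaks. The SMAD7 sequence holds a SOX motif (CATTGTT, 2.43% of all peaks), here on the reverse strand. The USP7 sequence holds a SOX, a TFAP2 and a TEAD motif (CATTCCA, 4.81%). In the GNA13 sequence, the capitals near the left end mark an NRF2 motif (TGACTCAGC, 0.719%), which always contains the AP-1 motif (TGACTCA, 4.50%), and those further right mark TEAD. The ATP6V0C sequence holds a FOX motif (TGTTTAC, 2.85%).

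A further 3 sequences, chosen after their values were seen, come from signalling genes and carry the motifs that recur in the results. DUSP6 and SPRED2, both antagonists of ERK signalling, had less accessible flanks. FZD7, a WNT receptor, had a more accessible one.
DUSP6 flank, chr12:89349952-89350151: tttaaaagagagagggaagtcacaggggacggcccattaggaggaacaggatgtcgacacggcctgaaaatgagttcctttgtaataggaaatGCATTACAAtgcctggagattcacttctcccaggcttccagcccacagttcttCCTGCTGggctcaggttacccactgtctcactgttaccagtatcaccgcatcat
SPRED2 flank, chr2:65437873-65438072: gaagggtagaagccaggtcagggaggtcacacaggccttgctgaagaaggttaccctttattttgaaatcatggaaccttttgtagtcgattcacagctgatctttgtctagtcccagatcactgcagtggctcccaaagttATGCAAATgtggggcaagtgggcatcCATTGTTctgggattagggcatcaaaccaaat
FZD7 flank, chr2:202038993-202039192: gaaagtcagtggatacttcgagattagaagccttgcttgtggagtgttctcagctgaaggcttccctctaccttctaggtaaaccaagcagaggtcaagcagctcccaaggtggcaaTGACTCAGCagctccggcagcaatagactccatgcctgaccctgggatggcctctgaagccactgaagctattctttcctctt

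The DUSP6 sequence holds the composite OCT-SOX motif (TTGTNATGC, 0.758% of all peaks) and a ZIC motif (CAGCAGG, 10.8%). The SPRED2 sequence holds an OCT motif (ATGCAAAT, 2.28%) and a SOX motif within 200 bases. The FZD7 sequence holds the NRF2 motif with the AP-1 motif inside it. Other listed genes did not all pair motif and direction in this way. The LRP5 flank held an OCT motif and lost accessibility (log2 fold change −1.33). The GCLC flank held an OCT-SOX motif but gained accessibility (1.73), and the SIRT2 flank held an AP-1 motif but lost accessibility (−1.12). A match describes the letters in the window and was not tested for binding.

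The flanking peaks had the nearest start of 11173 of 19702 protein-coding genes (56.7%), with a median of 2 peaks per gene and a single one at 3822 genes. TNS3, a focal adhesion protein, had the most, 27, followed by ACTB with 25 and BCOR with 22. The median distance was 4914 bp and the median width 203 bp. By annotation, 18203 centres lay in introns, 10261 in intergenic sequence, 2145 in coding exons, 1294 in 3′ UTRs and 106 in 5′ UTRs. A total of 3033 (9.48%) lay inside another gene than the one with the nearest start, and 5427 (17.0%) were within 1 kb of a start outside the rule, such as one of a noncoding gene. All 32009 peaks were tested without a filter on low counts. Of these, 29957 had at least 10 counts in every library and 21 had a count of 0 in some library.

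Counts in peaks per library ranged from 13025674 to 26828622 and overlapped between treatments. Promoter peaks were present at 18 of 19 naive pluripotency genes, with a median of 427 normalized counts in control (range 57.7 to 1042). The medians were 229 at 20 of 25 trophectoderm genes, 171 at 11 of 12 primitive endoderm genes and 198 at 7 of 12 fibroblast genes. They were 295 at 17 of 17 shared pluripotency genes, 136 at 12 of 14 primed genes and 205 at 15 of 16 primitive streak and mesoderm genes. Genes of the integrated stress response (452), the p53 pathway (440) and the TCA cycle (438) had medians as high as the naive genes. Accessibility at a promoter is not expression. At fibroblast genes, 18 flanking peaks were measured and 0 passed an adjusted p of 0.01 with edgeR or DESeq2. At an unadjusted p below 0.05, 2 fell and 3 rose. With edgeR, 8.13% of all flanking peaks fell and 3.55% rose at an adjusted p below 0.01. A count of 0 among 18 peaks therefore does not set these genes apart.

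Flanking peaks became less accessible more often than more accessible upon dm-αKG exposure. With edgeR, 644 flanking peaks (2.01%) were less accessible at an adjusted p below 0.01 and a log2 fold change below −1, close to the 1.96% of all peaks. Another 234 (0.731%) were more accessible with a log2 fold change above 1, against 0.782% of all peaks. Losses made up 0.228% of peaks within 1 kb of a start and 2.79% of those over 10 kb away, and gains 0.462% and 0.955%. Of the calls in flanking peaks, 73.3% were losses. Losses also outnumbered gains over all peaks (3365 and 1342). Flanking peaks, 18.7% of all peaks, held 19.1% of all losses and 17.4% of all gains. Flanks with losses belonged to 576 genes, those with gains to 218, and 17 genes had both. The median count of less accessible peaks went from 74.8 in control to 31.6 with dm-αKG, and that of more accessible peaks from 24.6 to 55.5. Peaks of either kind were mostly solitary. Joining called peaks up to 1000 bp apart left 610 sites of loss and 222 sites of gain. Treatments did not overlap in 639 of 644 less accessible and 231 of 234 more accessible peaks, where 32.4% of all peaks had no overlap.

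Without a threshold on fold, 2602 flanking peaks (8.13%) fell at an adjusted p below 0.01, compared with 6.54% of all peaks. A further 1135 (3.55%) rose, compared with 3.34% of all peaks. Within 1 kb of a start 1.68% of peaks fell and 4.51% rose, and over 10 kb away 8.36% fell and 2.70% rose. The median log2 fold change over flanking peaks was −0.01 and over all peaks 0.01. Both medians lay near 0, and 31131 flanking peaks were not called.

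The less accessible flanking peak with the smallest adjusted p lay in intergenic sequence, 5803 bp downstream of a start of STRADB, a pseudokinase that binds the LKB1 kinase. Its normalized counts were 250.4, 261.4 and 261.2 in control and 66.7, 50.03 and 58.4 with dm-αKG (log2 fold change −2.11 ± 0.15 (SE), adjusted p = 2.03e-21). Every dm-αKG library lay below every control library. Peaks named here by smallest adjusted p, in both directions, were chosen among called peaks without overlap of treatments. Their separation therefore follows from the choice. The next peak had the start of F12, coagulation factor XII, as nearest but lay in an intron of GRK6. It had 279.9, 256.5 and 308.5 normalized counts in control and 67.4, 69.3 and 97.3 with dm-αKG. This is a decrease to below all controls, with a log2 fold change of −1.88 ± 0.14 (SE).

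The flank 9783 bp upstream of CD9, which encodes a tetraspanin of the cell surface, had 472.2, 488.3 and 513.8 normalized counts in control and 210.1, 224.5 and 215.5 with dm-αKG. The intronic flank of TDP1, a DNA repair phosphodiesterase, had 259.4, 269.6 and 314.6 in control and 90.4, 85.95 and 82.3 with dm-αKG. The flank 9028 bp upstream of SMAD7, the inhibitory SMAD of TGF-β signalling, had 437.4, 450.5 and 474.9 in control and 190.7, 197.6 and 224.5 with dm-αKG. In all 3 flanks the treatments were separated by a wide gap, and the log2 fold changes were −1.18 ± 0.09, −1.69 ± 0.13 and −1.17 ± 0.10 (SE). The peak 3355 bp upstream of PRDM14, a transcription factor of naive pluripotency, had 293.4, 317.3 and 347.4 in control and 129.1, 128.3 and 128.7 with dm-αKG. It fell in all 3 dm-αKG libraries to nearly the same level.

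The other less accessible peaks of the 12 with the smallest adjusted p were nearest to MR1, CHCHD4, NUP205, USP7, PALM2AKAP2 and LRRC23, with log2 fold changes from −1.46 at NUP205, a nuclear pore subunit, to −1.01 at PALM2AKAP2. CHCHD4 imports proteins into the mitochondrial intermembrane space, and its flank, in the 5′ UTR of a transcript, went from 484.7 ± 20.5 to 230.8 ± 13.8 normalized counts (SD, n = 3). The flank of USP7, a deubiquitinase, went from 317.6 ± 20.2 to 127.3 ± 9.45. The PALM2AKAP2 flank was no longer called without control replicate 1 or dm-αKG replicate 3, and the LRRC23 flank without control replicate 2 or dm-αKG replicate 3. Their log2 fold changes without 1 library lay between −1.10 and −0.89 and between −1.08 and −0.96.

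The more accessible flanking peak with the smallest adjusted p was 8147 bp upstream of GNA13, a G protein α subunit. It had 81.4, 93.7 and 100.8 normalized counts in control and 230.2, 246.3 and 170.6 with dm-αKG (log2 fold change 1.25 ± 0.14 (SE), adjusted p = 2.79e-11). All dm-αKG libraries were above all control libraries, as the choice of these peaks required. The flank of QTRT2, which modifies tRNA, had the largest gain among all flanking peaks, with 17.9, 14.8 and 14.6 in control and 64.5, 89.8 and 85.3 with dm-αKG (log2 fold change 2.30 ± 0.27 (SE)). It lay 119 bp from another annotated start of QTRT2 that the rule on protein-coding transcripts does not use.

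The flank in the 3′ UTR of GAS2L1, a linker of the cytoskeleton, had 76.9, 68.2 and 48.6 normalized counts in control and 174.3, 166.8 and 166.1 with dm-αKG. The flank of ATP6V0C, the ring subunit of the proton pump of lysosomes, had 58.1, 62.5 and 43.7 in control and 167.8, 155.2 and 112.3 with dm-αKG. The flank of ETS1, a transcription factor, had 102.9, 84.7 and 97.2 in control and 197.9, 205.3 and 202.1 with dm-αKG. In each of these 3 flanks the lowest dm-αKG library exceeded the highest control library. The gains at GJB7, FBXW4, NTN1, PKM, CSNK1E, PNOC and ZNF384 had log2 fold changes from 1.05 at PKM, the pyruvate kinase of glycolysis, to 1.84 at GJB7, a connexin. The PKM flank was no longer called without control replicate 3 or dm-αKG replicate 2, with log2 fold changes from 0.96 to 1.17 over the 6 fits with 1 library left out.

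**Figure D1:**
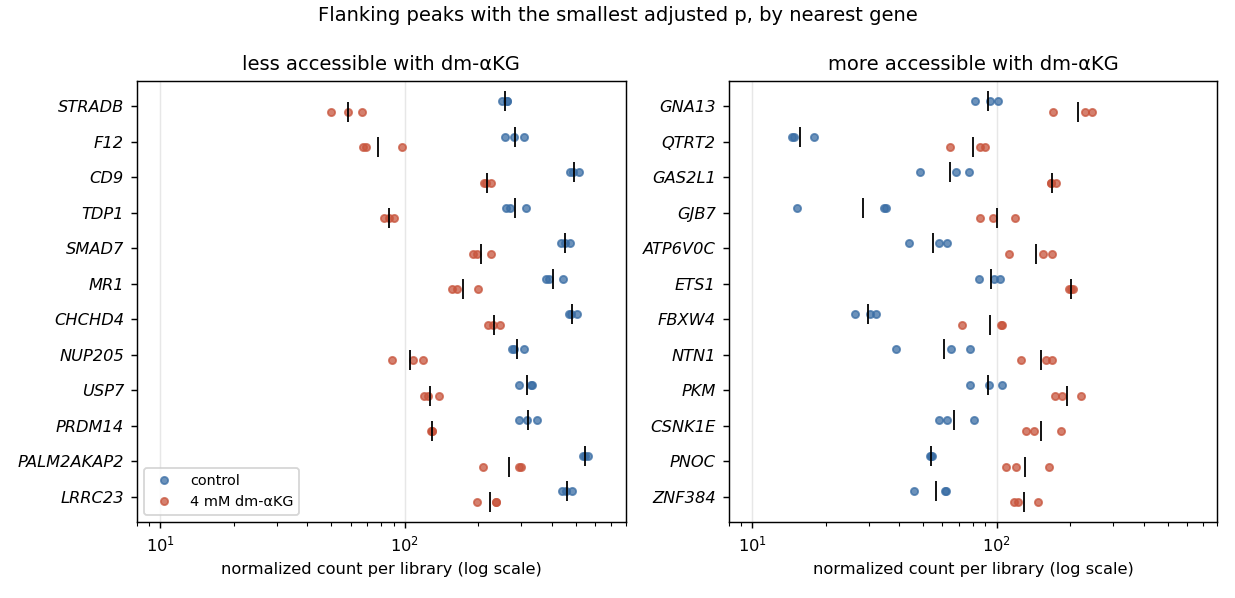
Normalized count per library (log axis) of the 12 less and the 12 more accessible flanking peaks with the smallest adjusted p, named by nearest gene. Each point is 1 library and black ticks are means of 3 libraries. Only called peaks whose treatments do not overlap were eligible, so the lack of overlap follows from the choice.

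The 5 flanking peaks of highest control signal were not called in either direction. They were nearest to SGCE, ATP6V1B1, FSCN1, SPDYE10 and MRPL48. The SGCE peak, inside the imprinted gene PEG10, had 1512, 1423 and 1546 normalized counts in control and 1351, 1437 and 1525 with dm-αKG, which overlap. The ATP6V1B1 flank alone among these 5 passed the adjusted p of 0.01, at 1271 ± 90.0 in control and 1093 ± 111 with dm-αKG (SD, n = 3, log2 fold change −0.22 ± 0.06 (SE)).

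Some genes held several less accessible flanks. At least 2 were found at 58 genes and at least 3 at 7, CTSF, FAM174B, COPS7A, HOPX, LRRC2, SOX13 and USP7. CTSF, the lysosomal protease cathepsin F, had 5 of its 8 flanking peaks called less accessible, spread over 14124 bp. The deepest loss was 4711 bp upstream, with 62.6, 92.1 and 74.1 normalized counts in control and 14.3, 8.98 and 7.48 with dm-αKG (log2 fold change −2.77 ± 0.29 (SE)). A peak 4405 bp upstream went from 111.9 ± 16.0 to 24.0 ± 9.26 (SD, n = 3) and a peak 2097 bp upstream from 125.0 ± 14.7 to 40.4 ± 7.80. All 3 were separated between treatments. The peak 8898 bp downstream, in an intron of ACTN3, was not called without control replicate 2. The peak 1441 bp upstream was not called without control replicate 2 or 3 or without dm-αKG replicate 1 or 2. Both had log2 fold changes of −0.89 or lower in these fits.

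SOX13, a SOX family transcription factor, had 3 of 13 flanks called less accessible, while its promoter peak rose (log2 fold change 0.43, adjusted p = 6.63e-05). The intronic SOX13 flank 4161 bp upstream of a start had 129.7, 111.0 and 138.5 normalized counts in control and 43.03, 34.6 and 23.95 with dm-αKG. At HOPX, a homeodomain protein, 3 of 5 flanks were called, with log2 fold changes from −1.36 to −1.07. At COPS7A, a subunit of the COP9 signalosome, 3 of 5 flanks were called, all within 986 bp of each other. Of the 24 peaks of these 7 genes, 10 were no longer called in at least 1 fit that left out a library.

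No gene had 3 more accessible flanks, and 16 genes had 2. Both flanks were called at GJB7, IFIT1, PPP1R14A and R3HDM4, the genes of this group with 2 flanking peaks in all. The IFIT1 flanks lay in introns of LIPA, the lysosomal acid lipase gene, and IFIT1 itself is an interferon-induced gene. At ESRRB, an orphan nuclear receptor known from the pluripotency network, 2 of 10 flanks within 494 bp were called. The one with more counts had 55.5, 57.5 and 35.2 normalized counts in control and 100.4, 110.3 and 104.8 with dm-αKG, without overlap, and was not called without control replicate 3. At CTSD, the lysosomal protease cathepsin D, 2 of 3 flanks were called with log2 fold changes of 1.15 and 1.40. The other genes were FMN2, HOXB2, KLK14, MS4A15, MTHFD1L, PDZRN3, PPP2R2C, RSRP1, SCAF1 and TOM1L2. Of the 32 peaks of these 16 genes, 19 were no longer called in at least 1 fit that left out a library.

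Losses past the fold threshold were least frequent in the bin nearest the start. Between 1 and 2 kb, 86 of 6009 peaks (1.43%, 95% Wilson interval 1.16 to 1.76%) were less accessible. Between 2 and 5 kb this was 205 of 10270 (2.00%, 1.74 to 2.28%) and between 5 and 10 kb 353 of 15730 (2.24%, 2.02 to 2.49%). Falls at an adjusted p below 0.01 and any fold were most frequent in the middle bin, with 6.84%, 9.05% and 8.02% from the nearest to the farthest. Gains past the fold threshold made up 0.516%, 0.604% and 0.896%, while rises at any fold had the opposite order, with 4.09%, 3.66% and 3.26%. The middle bin had the smallest share of gains without control replicate 2 (0.732%, 0.555% and 0.737%) and without dm-αKG replicate 1 (0.582%, 0.536% and 0.725%). The order of losses past the fold threshold over the 3 bins was kept in each of the 6 fits that left out a library and with DESeq2. For losses past the fold threshold, the intervals of neighbouring bins overlap, while those of the nearest and the farthest bin do not. They cover counting error only, and since peaks are not independent no test is given.

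Counts moved in the same direction. Flanking peaks held 18.002, 18.04 and 18.2% of the counts of the control libraries and 17.7, 17.6 and 17.7% of those of the dm-αKG libraries. The treatments did not overlap, and the mean changed by −0.402 percentage points (exact permutation test, two-sided, p = 0.1, the smallest value that 3 against 3 libraries can give). The change was −0.00856 percentage points for peaks between 1 and 2 kb (exact p = 0.8, adjusted p = 0.8 over the 3 bins), −0.156 between 2 and 5 kb and −0.238 between 5 and 10 kb (both exact p = 0.1, adjusted p = 0.15). Over the same libraries the share within 1 kb of a start went from 40.8 ± 0.181% to 43.3 ± 0.817% and that over 10 kb from 41.1 ± 0.0981% to 39.1 ± 0.789% (SD, n = 3).

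GC content varied along with the losses. The median GC content was 58.0% between 1 and 2 kb and 54.0% between 5 and 10 kb. It was 49.5% in less accessible, 51.3% in more accessible and 55.5% in uncalled flanking peaks. Of flanks with up to 45% GC, 3.67% were less accessible and 1.57% more accessible. Above 65% GC these shares were 0.253% and 0.343%. Within the band of up to 45% GC, losses made up 3.95% of peaks between 1 and 2 kb, 3.80% between 2 and 5 kb and 3.54% between 5 and 10 kb, intervals that overlap. The order of the bins differed between GC bands. Between 55 and 60% GC the shares were 0.549% (0.252 to 1.19%), 1.69% (1.21 to 2.36%) and 1.33% (0.964 to 1.82%), so the interval of the nearest bin did not reach that of the middle bin. Between 60 and 65% GC they were 0.593%, 0.818% and 0.913%. The part of GC content in the losses was not tested.

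Promoter peaks had fewer losses than flanking peaks in the middle GC bands too. Between 50 and 55% GC, losses were 0.489% (95% Wilson interval 0.310 to 0.772%) of peaks within 1 kb of a start, 2.61% (2.25 to 3.02%) of flanking peaks and 2.89% (2.68 to 3.12%) of peaks over 10 kb away. Between 55 and 60% GC they were 0.356%, 1.30% and 1.99%. Up to 45% GC the intervals of promoter peaks (2.63%, 1.76 to 3.92%) and flanking peaks (3.67%, 3.12 to 4.31%) overlap. At the near limit of the rule the change was gradual. The 1024 peaks just outside 1 kb had 6 losses and a median log2 fold change of 0.07, and the 908 just inside it 8 losses and 0.04. At the far limit, 285 peaks just inside 10 kb had 11 losses (3.86%, 2.17 to 6.78%). The 234 just outside had 3 (1.28%, 0.437 to 3.70%), and these intervals overlap.

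**Figure D2:**
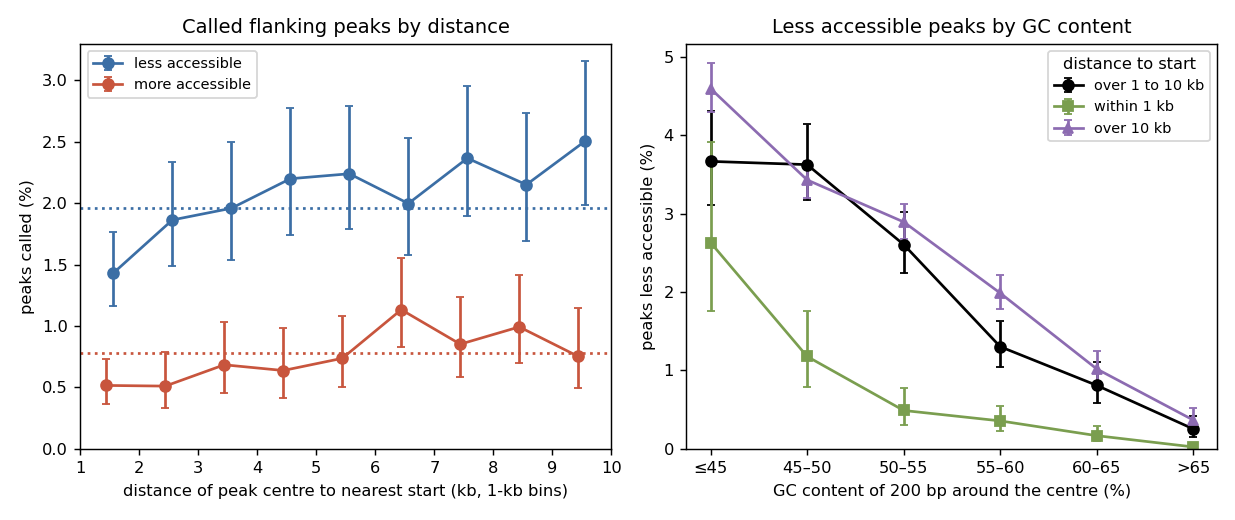
Left, percent of flanking peaks called less or more accessible in 1-kb bins of distance to the nearest start, with 95% Wilson intervals and, as dotted lines, the shares of 1.96% and 0.782% among all peaks. Right, percent called less accessible against GC content of 200 bp around the centre for the 3 distance classes, where the flanking peaks fall from 3.67% up to 45% GC to 0.253% above 65% GC.

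The side of the start made a small difference to the share of losses, and the annotation a larger one. Losses were 1.93% of downstream and 2.11% of upstream flanking peaks, and gains 0.814% and 0.638%. Intronic flanks had 2.28% losses (2.07 to 2.51%) and intergenic flanks 1.95% (1.70 to 2.23%), intervals that overlap. Flanks in coding exons had 9 losses among 2145 peaks (0.420%) and a median GC content of 67.5%. Flanks within 1 kb of another annotated start had 0.940% losses and a median GC content of 61.0%, whereas those over 1 kb from every start had 2.23%. The authors called peaks separately in each treatment, from the same libraries that were tested here. Presence in a list is therefore not independent of a call. Among all flanking peaks, 22250 were in both lists, 5454 only in the control list and 4305 only in the dm-αKG list. Of the 644 less accessible peaks, 441 were only in the control list, 200 in both and 3 only in the dm-αKG list. Of the 234 more accessible peaks, 177 were only in the dm-αKG list and 57 in both.

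Each flanking peak was then compared with a promoter peak of the gene it is named after. Each gene had 1 promoter peak, that with the highest mean count within 1 kb of any of its starts. At genes with several starts it need not lie at the start nearest the flank. The difference of log2 CPM between a flanking peak and the promoter peak of the same gene was tested in 27552 pairs of 9323 genes with limma. In 1514 pairs (5.5% of all) the flank fell relative to the promoter and in 413 (1.5%) it rose, at an adjusted p below 0.01. The median difference was −0.08. The 1927 pairs became 964, 791, 990, 1110 and 1205 when control replicate 1, 2 or 3 or dm-αKG replicate 1 or 2 was left out, and 2027 when dm-αKG replicate 3 was. In each of these fits, pairs with a lower flank outnumbered those with a higher one.

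Most less accessible flanks had a promoter that was not called. Of 567 less accessible flanks with a promoter peak, 454 passed the test of the difference and 2 had a promoter called less accessible. At an adjusted p below 0.01 and any fold, 26 of these promoters fell and 18 rose. Over all 27552 pairs, 57 had a promoter called less accessible (0.207%, compared with 0.353% of the 567), and 745 had one that fell at any fold (2.70%, compared with 4.59%). In 1070 pairs the promoter rose at any fold (3.88%, compared with 3.17% of the 567). The promoters of the 567 flanks had a median log2 fold change of 0.03 (quartiles −0.12 and 0.13). Of 195 more accessible flanks, 124 passed and 0 had a promoter called in edgeR, where 6 rose and 5 fell at an adjusted p below 0.01 and any fold. These are 3.08% and 2.56%, near the 3.88% and 2.70% of all pairs. Only 35 of all pairs had a promoter called more accessible. The promoters of the 195 flanks had a median log2 fold change of 0.08. The flanks were chosen for a large change in the same libraries, so these counts describe them and are not independent support.

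STRADB had a difference of −2.19 ± 0.17 (SE, adjusted p = 1.38e-07) and a promoter log2 fold change of 0.08. The other lower flanks with the smallest adjusted p were at TDP1, CHCHD4, GM2A and SOX13, with differences from −2.31 to −1.07. GM2A encodes the activator of lysosomal ganglioside breakdown, and its flank had 93.9, 102.8 and 100.8 normalized counts in control and 31.6, 30.8 and 43.4 with dm-αKG. Higher flanks were led by TMEM63C, an ion channel gene. Its flank had 485.7, 442.2 and 495.6 in control and 689.1, 753.0 and 705.0 with dm-αKG, while its promoter fell (log2 fold change −0.56). At ZFR2 the difference of 2.63 came mostly from the promoter, with a log2 fold change of −2.06 for the promoter and 0.59 for the flank. CALD1, an actin-binding protein, TNFAIP8 and ETS1 followed, with flank changes of 1.87, 0.96 and 1.09.

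**Figure D3:**
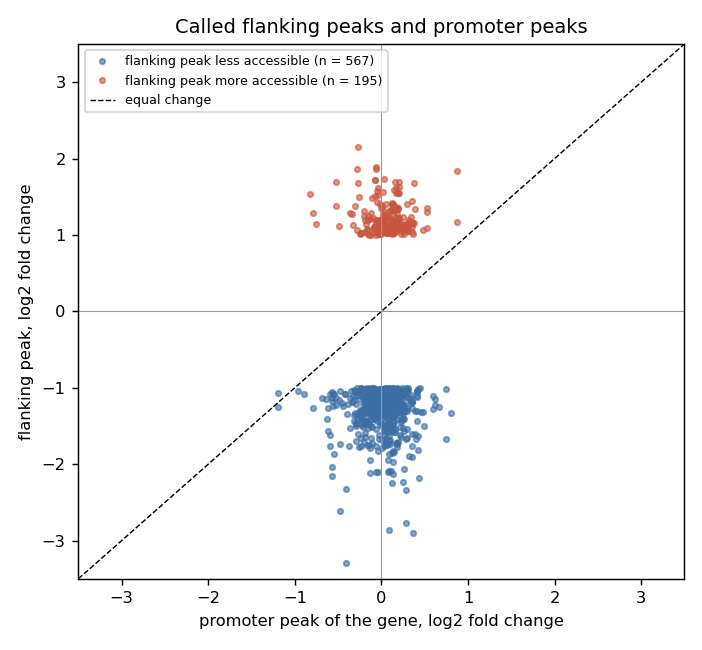
Log2 fold change of each called flanking peak (vertical axis) against that of the promoter peak of its gene (horizontal axis), for 567 less and 195 more accessible flanks, with the line of equal change dashed. Flanks lie beyond 1 in either direction by the call, while most promoters lie near 0.

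Genes of 19 lists, chosen for pluripotency, lineages, signalling and metabolism, had 969 flanking peaks at 255 of 335 genes, of which 15 were less and 5 more accessible. These shares, 1.55% and 0.516%, were below the 1.96% and 0.782% of all peaks. Counts of falls and rises in a list are at an adjusted p below 0.01 and any fold. These were reached by 6.54% and 3.34% of all peaks, and by 8.13% and 3.55% of flanking peaks. The median control count of the lists ranged from 52.4 (histone acetylation) to 168 (early epiblast), against 71.5 over flanking peaks. The part of these counts in the shares was not tested. In the lists of pluripotency, losses were found at PRDM14, at ZFP42 (REX1), a marker of naive cells, and at PODXL, a surface sialomucin. ZFP42 had 168.1, 158.6 and 166.4 normalized counts in control and 68.8, 78.3 and 82.3 with dm-αKG, without overlap. A gain was found at DPPA3, a marker of naive cells and germ cells, with 43.8, 39.5 and 47.4 in control and 96.1, 88.5 and 83.8 with dm-αKG. Genes with peaks that passed without the threshold on fold are named after their values were seen. Of 69 flanking peaks of naive genes, 11 fell, including 3 of PRDM14 and 2 of FGF4, and 3 rose, with a median log2 fold change of −0.02. PRDM14 also held 1 of the 3 that rose (0.73). The shares were 15.9% and 4.35%, compared with 6.54% and 3.34% of all peaks. The count of falls was 7 without dm-αKG replicate 1, and that of rises 6 without dm-αKG replicate 3.

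Of 78 flanking peaks of genes shared by naive and primed pluripotency, 10 fell (12.8%) and 1 rose (1.28%), with a median log2 fold change of −0.15. The peaks that fell were at LIN28A, DPPA4, FOXD3, L1TD1, PODXL and POU5F1, which encodes OCT4. LIN28A also held the 1 that rose (0.84). The count of falls was 6 without control replicate 1, 3 without control replicate 2 and was 5 without dm-αKG replicate 1 or 2. The PODXL peak was no longer called without control replicate 2, nor the DPPA3 peak without control replicate 2 or dm-αKG replicate 1. Among 69 flanking peaks of trophectoderm genes, 6 fell (8.70%) and 2 rose (2.90%), shares near the 6.54% and 3.34% of all peaks. A loss was called at OVOL1, an epithelial zinc finger factor, from 66.2 ± 7.51 to 28.1 ± 3.65 normalized counts (SD, n = 3). A gain was called at GATA2, a trophoblast transcription factor, from 40.6 ± 13.1 to 86.7 ± 4.13, and not without control replicate 2.

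Both ERK antagonists whose sequences are shown above had 1 flank called less accessible. Of the 2 flanks of DUSP6 both fell at an adjusted p below 0.01, with log2 fold changes of −1.22 and −0.46. The called DUSP6 flank had 170.8, 192.4 and 201.6 normalized counts in control and 76.01, 59.01 and 112.3 with dm-αKG (log2 fold change −1.22 ± 0.16 (SE)). The SPRED2 flank had 127.0, 115.1 and 88.7 in control and 40.9, 37.2 and 41.9 with dm-αKG (−1.47 ± 0.20). Both were separated between treatments. In the whole FGF and ERK list, 6 of 70 peaks fell (8.57%) and 1 rose (1.43%), a share of falls near the 6.54% of all peaks. Without dm-αKG replicate 1, 3 fell. In the TGF-β and NODAL list, 9 of 66 fell (13.6%, compared with 6.54% of all peaks) and 0 rose (8 at an unadjusted p below 0.05). The peaks that fell were at GDF11, LEFTY1, LEFTY2 and SMAD7, and 1 at GDF11 and 1 at SMAD7 passed the fold threshold. GDF11, a TGF-β family ligand, had a flank in its 3′ UTR with 178.9, 216.2 and 162.8 in control and 55.2, 66.7 and 65.9 with dm-αKG. The count for this list was 5 without control replicate 2 or dm-αKG replicate 1.

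Of 72 flanking peaks of WNT pathway genes, 13 fell (18.1%, compared with 6.54% of all peaks) and 4 rose (5.56%, compared with 3.34%), with a median log2 fold change of −0.08. LRP5, a WNT co-receptor, had a loss with 61.7, 78.1 and 64.4 normalized counts in control and 31.6, 12.8 and 35.9 with dm-αKG. FZD7 had a gain with 20.6, 27.1 and 13.4 in control and 57.4, 50.03 and 52.4 with dm-αKG. Neither overlapped. Other flanks that fell were at AXIN2, FZD5, FZD8, LRP6, TCF7L1, WNT5B and ZNRF3. LRP5, WNT5B and ZNRF3 each also held 1 flank that rose (log2 fold changes 0.55, 0.57 and 0.55). The count of 13 became 7 without control replicate 2 and was 8 without dm-αKG replicate 1 or 2. In these 3 fits 1 peak rose instead of 4. In the Hippo list, 9 of 57 peaks fell (15.8%), at ANKRD1, LATS1, SAV1, TEAD1, WWTR1 and YAP1, and 0 rose (6 at an unadjusted p below 0.05). The median was −0.22, and 0 were called past the fold threshold. The 9 became 4 without control replicate 1, 3 without control replicate 2, and 3 and 5 when dm-αKG replicates 1 and 2 were left out in turn.

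Metabolic genes had few flanking peaks. Of 28 peaks at 11 genes of the TCA cycle and αKG metabolism, 8 fell (28.6%, compared with 6.54% of all peaks) and 0 rose (0 at an unadjusted p below 0.05 too), with a median log2 fold change of −0.39 against 0.01 over all peaks. They were at BCAT1, IDH2, DLST, GOT1 and SDHB, which encode enzymes that use or make αKG or succinate. The count was 3 without control replicate 2 and was 4 without dm-αKG replicate 1. BCAT1, which transfers amino groups to αKG, had the only call of the list, from 110.5 ± 11.2 to 55.01 ± 5.53 normalized counts (SD, n = 3). This call was lost without control replicate 2 or either of dm-αKG replicates 1 and 2. Promoter peaks of this list had a median log2 fold change of 0.05.

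Of 98 flanking peaks of αKG-dependent dioxygenases, 8 fell (8.16%) and 4 rose (4.08%), shares near the 6.54% and 3.34% of all peaks. FTO, an RNA demethylase of this class, had a flank with 32.2, 46.03 and 27.9 normalized counts in control and 7.89, 12.8 and 5.99 with dm-αKG. The treatments did not overlap, and the means were 35.4 ± 9.46 and 8.90 ± 3.53 (SD, n = 3). Of 48 flanking peaks of histone acetylation genes, 6 fell (12.5%) and 1 rose (2.08%), with calls at HDAC2, HDAC7 and SIRT2, which encode deacetylases. The other falls were at the acetyltransferase genes CREBBP (log2 fold change −0.68) and KAT8 (−0.64) and at the deacetylase gene HDAC5 (−0.37). HDAC5 also held the 1 rise (0.90). The HDAC2 flank had 35.8, 37.0 and 21.9 in control and 7.89, 3.85 and 16.5 with dm-αKG. The HDAC7 and SIRT2 flanks were no longer called without control replicate 1 or 3 or without dm-αKG replicate 1 or 2. In the fits without 1 library, the count of 6 was 3 without control replicate 1 or 3 and just 2 without dm-αKG replicate 1.

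Of 55 flanking peaks of NRF2 and its targets, 4 rose (7.27%, compared with 3.34% of all peaks) and 2 fell (3.64%, compared with 6.54%). The median log2 fold change was −0.02. Rises were at FTH1, GCLC, GSR and HMOX1. Falls were at NQO1, which had 1 flank (−0.76), and at TKT (−0.38), and 0 fell without control replicate 2 or 3. The flank of GCLC, the catalytic subunit of the enzyme that limits glutathione synthesis, had 17.9, 19.7 and 7.29 normalized counts in control and 43.7, 75.7 and 37.4 with dm-αKG (log2 fold change 1.73 ± 0.31 (SE)). The treatments did not overlap. The window holds an OCT-SOX motif and no NRF2 motif. The flank nearest to FTH1, ferritin heavy chain, lay in the 3′ UTR of BEST1 and rose from 22.6 ± 8.92 to 49.5 ± 20.7 (SD, n = 3). It was not called without control replicate 1 or dm-αKG replicate 1, and the count of 4 rising flanks became 1 without control replicate 1. In the list of the integrated stress response, 7 of 55 flanks fell (12.7%) and 1 rose (1.82%), with a call at PHGDH, the entry enzyme of serine synthesis, from 37.8 ± 6.48 to 13.7 ± 1.71. The count of 7 became 4 without control replicate 2 and was 3 without dm-αKG replicate 1.

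**Figure D4:**
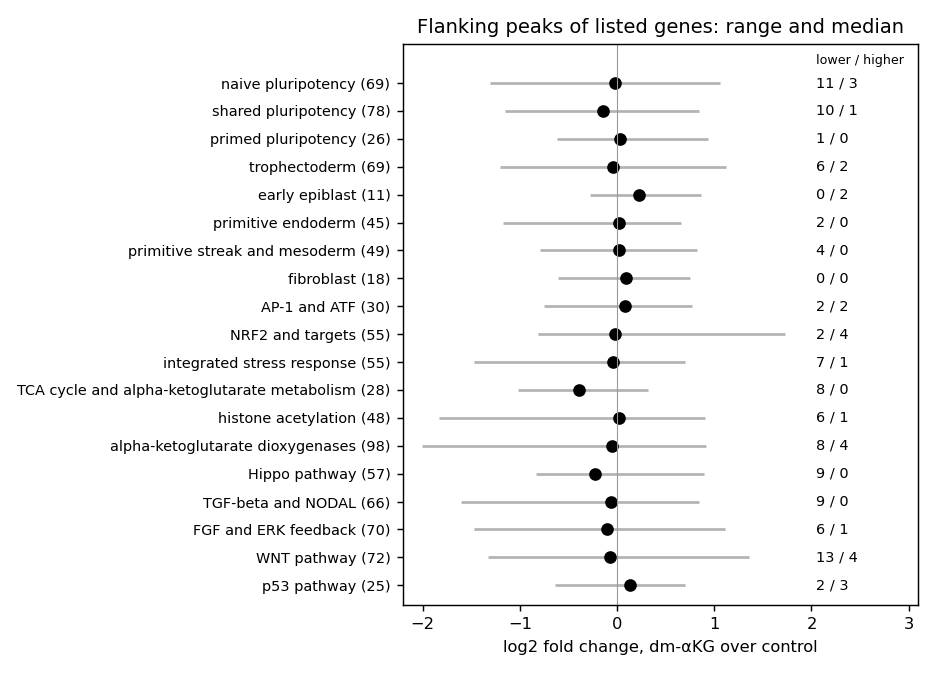
Log2 fold change of flanking peaks of the genes of 19 lists, with the number of peaks in parentheses, the range as a line and the median as a point. At the right are the numbers that fell and rose at an adjusted p below 0.01. The TCA cycle list has the lowest median, −0.39, and the fibroblast list, with only 18 peaks, 0 in both directions.

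The remaining lists had few peaks past an adjusted p of 0.01. Of 30 peaks of AP-1 and ATF genes, 2 fell and 2 rose. In the p53 list, 2 of 25 fell and 3 rose, all 3 at BBC3, the pro-apoptotic PUMA. In the primitive streak and mesoderm list 4 of 49 fell and 0 rose, in the primitive endoderm list 2 of 45 fell, in the primed list 1 of 26 fell, and in the early epiblast list 2 of 11 rose. Such small counts were not stable when a library was left out. The early epiblast count was 2 or more only in the fit without dm-αKG replicate 3, which gave 3, and 0 in the other 5. The p53 count of rises dropped to 0 without dm-αKG replicate 1. Over all lists, the number of rises per list lay between 0 and 6 in these fits.

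Flanking peaks with motifs of the pluripotency factors were shifted towards lower accessibility. The 216 flanks with the OCT-SOX motif had a median log2 fold change of −0.24, compared with −0.01 for those without it, and the 675 with the OCT motif had −0.17. The 780 flanks with the SOX motif also had −0.17. One or more of these 3 motifs were in 11.8% of less accessible flanks, 4.86% of uncalled flanks and 2.99% of more accessible flanks. The last share rests on 7 peaks, which were 13 without control replicate 2 but 11 without dm-αKG replicate 3. The TEAD motif was in 1699 flanks with a median of −0.14, and in 8.70% of less accessible against 5.25% of uncalled flanks. The KLF motif (CCACACCC, 4.26% of all peaks) was in 1663 flanks with a median of −0.11. A motif outside this group, ATF4 (TGATGCAA, 0.830% of all peaks), was in 271 flanks with a median of −0.16.

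The AP-1 and NRF2 motifs went the other way. The AP-1 motif was in 1576 flanks with a median log2 fold change of 0.07, and in 49 of the 234 more accessible flanks (20.9%) against 4.81% of uncalled ones. The NRF2 motif was in 251 flanks with a median of 0.15, and in 16 more accessible flanks (6.84%) against 0.748% of uncalled ones. Flanks with the AP-1 but not the longer NRF2 motif still made up 14.1% of more accessible flanks. The FOX motif was in 9.40% of more accessible and 2.68% of uncalled flanks. Named flanks with the AP-1 motif and a gain include GNA13, GAS2L1, NTN1, PKM, FZD7 and TNFAIP8. The flanks of PRDM14 and SIRT2 hold it too and lost accessibility. The CTCF motif (CCAGNAGGG, 3.26% of all peaks) was in 1237 flanks with a median of −0.00497.

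Flanks with OCT or SOX motifs had low GC content, with a median of 48.0% for OCT and 49.0% for SOX against 55.5% for the rest, so medians were also taken within GC bands. Between 45 and 50% GC, flanks with the OCT-SOX motif had a median log2 fold change of −0.31 (58 peaks), compared with −0.08 without it, and between 50 and 55% GC −0.43 (40 peaks) compared with −0.07. Above 55% GC the medians with this motif lay between 0.03 and 0.04 in 26, 9 and 6 peaks. Up to 45% GC, losses were 3.43% of flanks with OCT against 3.68% without it. They were 3.16% against 3.71% for TEAD, 3.67% in both for KLF and 6.30% against 3.49% for SOX. Between 45 and 50% GC they were 5.51% against 3.54% for OCT, 5.77% against 3.46% for TEAD and 2.94% against 3.67% for KLF. With the AP-1 motif the median was 0.05 up to 45% GC, compared with −0.12 without it, and above it in each of the 6 bands. The share of more accessible flanks with the AP-1 motif was 4.76% against 1.39% in the lowest band. By distance, the medians for OCT were −0.22, −0.15 and −0.16 from the nearest to the farthest bin and those for NRF2 0.10, 0.16 and 0.20. For OCT-SOX they were −0.12, −0.28 and −0.22, and for FOX 0.12, 0.05 and −0.0034. Over the peaks outside the flanks, the median was −0.27 with OCT-SOX and 0.15 with NRF2. All motif comparisons are descriptions, without a test.

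**Figure D5:**
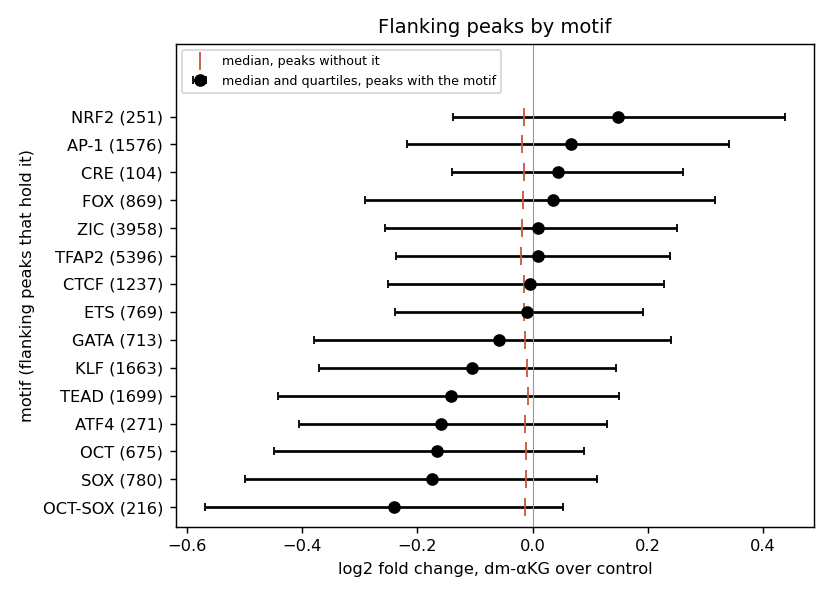
Median log2 fold change and quartiles of flanking peaks that hold each of 15 motifs (black), with the number of peaks in parentheses, and the median of flanking peaks without the motif (red tick). OCT-SOX lies lowest at −0.24 and NRF2 highest at 0.15, and the quartiles of every motif span 0.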

How the data were processed

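ATAC-seq libraries of H9 nES cells were analysed, 3 control and 3 exposed to 4 mM dm-αKG over 24 h, grouped by the labels. The authors aligned paired reads to hg38 and called peaks per treatment with the ENCODE ATAC-seq pipeline. They shortened the reproducible peaks to 200 bp around the summit, merged both lists, counted reads per library with bedtools 2.28.0, and deposited raw counts. They also deposited 1 peak list per treatment with the signal of each peak over background as a fold enrichment, used here only to see which list held a peak.

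Nearest starts were taken from protein-coding transcripts of GENCODE 44, which may differ from the annotation of the study. The members, gene lists and motifs were chosen with earlier results of these data known. All 171517 peaks were fitted in edgeR 4.0.16 (R 4.3.3) by a quasi-likelihood test with TMM scaling and treatment as the only term, with Benjamini-Hochberg adjustment over all peaks. The thresholds for a call were 0.01 for the adjusted p and 1 for the size of the log2 fold change. The study used DESeq2, which served as an alternative here (version 1.42.0). SEs are the log2 fold change divided by the square root of F. Normalized counts are scaled to the mean TMM-scaled library size. A flank was compared with the promoter peak of its gene by limma 3.58.1, adjusted over 27552 pairs. The test used the difference of log2 CPM with a prior count of 2. The promoter peak was the one with the highest mean normalized count within 1 kb of any start of the gene. The smallest library held 13025674 counts in peaks and the largest 26828622. Wilson intervals are at 95% and cover counting error only. Motifs were exact matches, on either strand, to the 200 bp at the centre of a peak (Python 3.11.15, pysam 0.24.0).

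Named peaks are the 12 less and 12 more accessible ones with the smallest adjusted p and no overlap of treatments, 1 per gene; genes with 3 or more called flanks (2 for gains); called flanks of listed genes; the 5 with the highest control count; and the 5 pairs with the smallest adjusted p per direction. Alternatives changed the test, scaling, filter, thresholds, prior count, annotation, replicate term and libraries. The fits were tested on simulated data.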

Additional observations from a re-analysis of the deposited data

How the results depend on the processing

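The counts of less and more accessible flanking peaks stayed within 1.5 times under DESeq2 (506 and 157), RLE scaling (640 and 237), total count scaling (595 and 254), a minimum of 10 counts in every library (540 and 206), basic transcripts for membership (546 of 28426 and 193) and the removal of peaks near other starts (593 of 26582 and 204). Of the DESeq2 calls, 503 and 154 were also called by edgeR, and DESeq2 gave no adjusted p for 934 flanking peaks. At an adjusted p below 0.05 without a threshold on fold the counts were 4035 and 2391, and pairs past the threshold 4325, since these thresholds admit more. Leaving out 1 library gave 553 to 750 less and 182 to 254 more accessible peaks, and 791 to 2027 pairs. The change in the share of counts lay between −0.437 and −0.354 percentage points. For the bin from 1 to 2 kb the change took either sign, between −0.0222 and 0.00901, and was 0.0157 with basic transcripts. For 2 to 5 kb it was −0.123 with basic transcripts, and the cause was not tested.

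The replicate numbers share only a number, as the deviations of same-numbered libraries had correlations between −0.0158 and 0.0127 over 3 pairs. With the replicate block, 630 flanking peaks were less and 226 more accessible, and 1870 pairs passed. Of 96 named peaks, 0 changed direction under any alternative. DESeq2 left 14 of them below the thresholds, the replicate block 6 and the removal of 1 library between 9 and 22. Peaks near 10 counts have wide errors, and with 3 libraries per treatment an exact test of a single peak cannot pass 0.10.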
